A study of Homo sapiens with 6 samples.

Results

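The interferon-stimulated genes examined here are a list of 47 human genes named by symbol, of which 46 had a row in the deposited expression table, out of 26810 rows that are not spike-ins. The list names genes by symbol and its rule uses no measured value, but it was drawn up with earlier results of these data known. IRF7 was not analysed here. Poly(A)-selected RNA came from U-937, an acute myeloid leukemia line of monocyte-like cells, in a single Cas9-expressing clone. Of the 6 libraries, 3 carried sgMETTL1.3, a guide RNA that targets the tRNA N7-methylguanosine methyltransferase gene METTL1, and 3 carried the control guide sgNS. All 6 libraries share the Cas9 clone, lentiviral delivery, selection with blasticidin at 10 µg/ml and hygromycin B at 200 µg/ml, and harvest at about day 8 to 10 after transduction. The labels give the genotype as a KMT2A-MLLT10 fusion for every library, whereas the line is usually described with a PICALM-MLLT10 fusion. The labels name no interferon treatment, and the 6 libraries include neither another METTL1 guide nor a rescue. Whether replicates were cultured separately is not stated, and the p-values rest on library-to-library spread that could be technical.

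METTL1 itself had 8.08, 7.14 and 7.82 TPM in the sgMETTL1.3 libraries, against 17.5, 17.9 and 16.8 TPM in the sgNS libraries (log2 fold change -1.09, SE 0.07, limma adjusted p = 9.55e-05). Values are given on 2 scales throughout. Deposited values are TPM (a level per transcript length, scaled so that every library has the same total) multiplied by 1 factor per library that sets the ERCC spike-in RNAs to the same sum, and are called spike-in scaled TPM. Plain TPM divides each column by its own total. The factor was 0.935 ± 0.0973 in sgMETTL1.3 and 1.19 ± 0.0518 in sgNS (SD, n = 3; two-sided exact permutation p = 0.1, the smallest that 3 against 3 allows). A gene with equal TPM in both groups is therefore lower in sgMETTL1.3 on the spike-in scale. The read depth behind the values is unknown. Replicate 1 of sgMETTL1.3 stood apart: across 12019 tested genes its deviation from the other sgMETTL1.3 libraries followed transcript GC content (Spearman 0.84 on the TPM scale, across genes, which are not independent replicates). In bulk RNA, fewer cells that express a gene and less RNA per cell cannot be told apart.

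Type I interferon binds a receptor made of IFNAR1 and IFNAR2, whose kinases JAK1 and TYK2 activate STAT proteins. STAT2 and IRF9 are parts of the transcription factor that binds the interferon-stimulated response element in the promoters of antiviral genes. Their products sense, trap or degrade viral RNA, block entry or assembly, or feed back on the pathway. Myeloid cells also transcribe many of these genes at a basal level without added interferon.

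The response element was searched as TTTC, any 2 bases and TTTC again, or on the other strand as GAAA, any 2 bases and GAAA, in windows of 250 bases before to 50 bases after the RefSeq start (GRCh38.p14). Of the 46 members with a row, 36 had a promoter in the table, and 21 of these (58.3%) held at least 1 match, against 996 of all 27305 promoters (3.65%). The interferon-gamma element TTCNNNGAA, its own reverse complement, was found in 9 of 36 (25%) and in 7.88% of all promoters. Matches are letters in a window and not shown sites of binding, and copies of the first motif can overlap each other, as in ISG15. The windows below cover members that rose on both scales, members that rose as TPM only, members that fell on both scales, and GBP1, which was not tested. Each is read 5′ to 3′ on the strand of the gene. Capitals mark matches to the response element.
IFIT1, chr10:89392495-89392554, plus strand: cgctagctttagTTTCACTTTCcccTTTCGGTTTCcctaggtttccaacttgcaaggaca
IFIT3, chr10:89327850-89327909, plus strand: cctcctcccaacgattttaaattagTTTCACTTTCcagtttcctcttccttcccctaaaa
IFI6, chr1:27672251-27672310, minus strand: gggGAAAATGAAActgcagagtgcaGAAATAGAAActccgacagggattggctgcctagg
ISG15, chr1:1013365-1013424, plus strand: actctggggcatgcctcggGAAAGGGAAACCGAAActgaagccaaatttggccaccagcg
TRIM5, chr11:5685067-5685126, minus strand: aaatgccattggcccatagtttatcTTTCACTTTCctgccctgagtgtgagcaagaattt
PARP14, chr3:122680785-122680844, plus strand: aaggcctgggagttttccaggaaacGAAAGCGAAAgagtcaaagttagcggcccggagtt
GBP1, chr1:89065301-89065360, minus strand: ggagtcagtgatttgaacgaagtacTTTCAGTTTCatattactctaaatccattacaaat
IFI6 held 3 matches, the nearest 93 bases before its start, and the whole 300-base window (chr1:27672143-27672442, minus strand) shows them in order.
IFI6 promoter: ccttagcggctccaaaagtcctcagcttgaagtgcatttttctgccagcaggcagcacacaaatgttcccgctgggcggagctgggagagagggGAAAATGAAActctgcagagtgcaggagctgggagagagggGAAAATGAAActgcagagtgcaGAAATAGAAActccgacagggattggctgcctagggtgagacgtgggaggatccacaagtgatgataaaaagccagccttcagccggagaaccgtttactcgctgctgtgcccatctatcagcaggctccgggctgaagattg

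The members did not move as a block. IFI6, IFIT2, IRF9, IFIT1 and STAT2 rose in sgMETTL1.3 on both scales, and TRIM5, IFITM2, PARP14, MX2, IFNAR1, ADAR and XAF1 fell on both. Of the 46 members, 34 passed the filter (3 or more of the 6 libraries at 1 or above) and entered limma on log2(value + 1), with Benjamini-Hochberg adjustment over all genes and a threshold of 0.05. On the spike-in scale 5 rose, where 6.40% of all 12449 tested genes rose, 14 fell, where 49.3% of all tested genes fell, and 15 did not pass. As TPM 15 rose, where 24.4% of all 12404 tested genes rose, 7 fell, where 26.6% of all tested genes fell, and 12 did not pass. Of the remaining members, 7 fell on the spike-in scale only, 10 rose as TPM only and 5 passed on neither scale. No share of all tested genes is given for calls joined over both scales, so the joint counts are a description with no test. With all libraries and no correction, no member was called in opposite directions on the 2 scales. BST2 was so called after GC correction, and SP100 without sgMETTL1.3 replicate 1. With both alternatives together, BST2, SP100, IFIH1 and OAS3 were called higher as TPM and lower on the spike-in scale. The median log2 fold change of the 34 was -0.14 on the spike-in scale, beside -0.32 over all tested genes, and 0.20 as TPM, beside 0.00 over all tested genes.

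Without sgMETTL1.3 replicate 1, 7 members rose (6.43% of all tested genes) and 14 fell (61.4%) on the spike-in scale, and 16 rose (34.7%) and 9 fell (35.4%) as TPM. Leaving out sgNS replicate 2 left 3 members higher on the spike-in scale (5.16% of all tested genes). After GC correction 8 rose (8.39% of all tested genes) and 17 fell (60.0%) on the spike-in scale, and 16 rose (30.7%) and 9 fell (34.8%) as TPM. Groups did not overlap for 6 members that were higher (8.66% of all tested genes) and 14 that were lower (53.4%) on the spike-in scale, and for 17 higher (30.2%) and 9 lower (33.1%) as TPM.

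**Figure D1:**
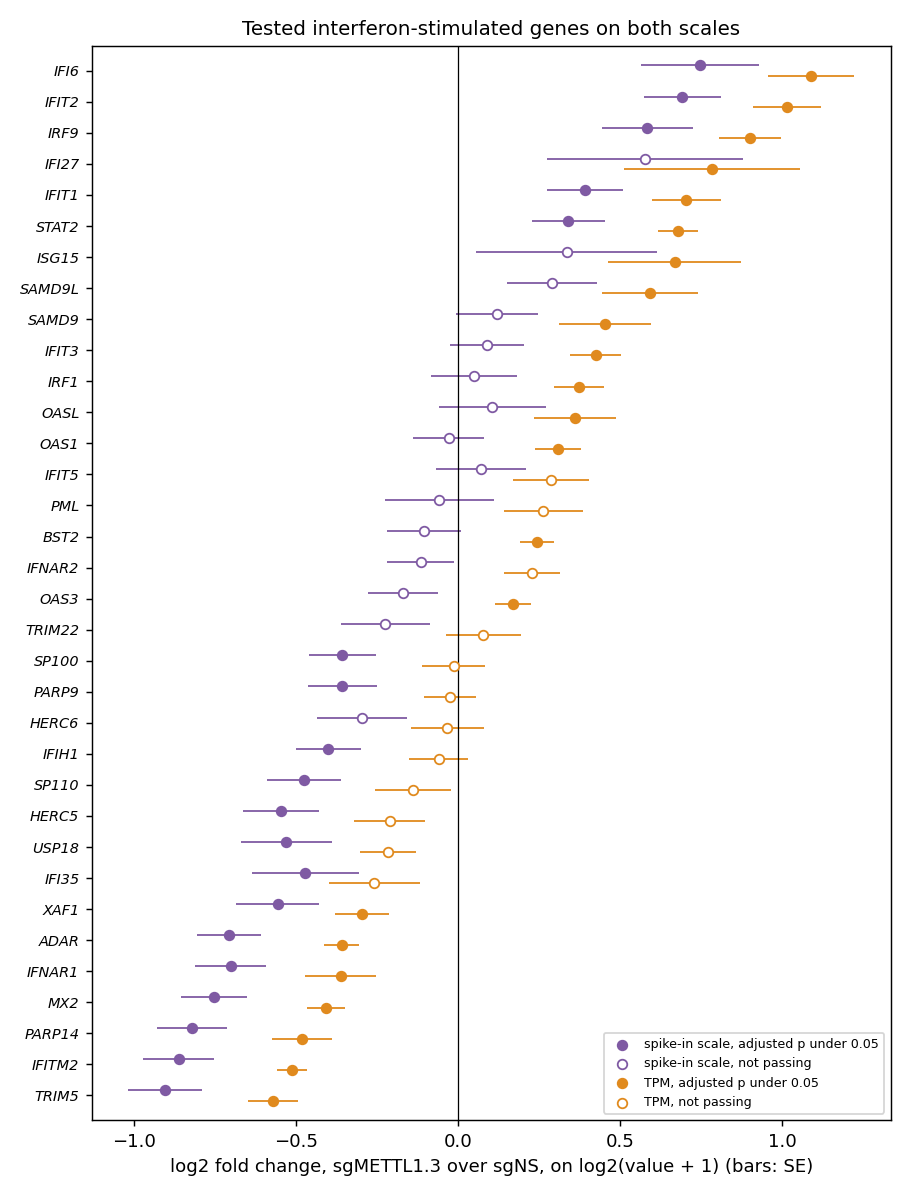
Log2 fold change (sgMETTL1.3 over sgNS, on log2(value + 1), bars are standard errors) of the 34 tested members, on the spike-in scale and as TPM; filled points had a limma adjusted p under 0.05. IFI6 stands highest at 1.09 and TRIM5 lowest at -0.57 as TPM, and every member lies further left on the spike-in scale.

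Among the receptor chains, IFNAR1, the chain that carries TYK2, was lower in sgMETTL1.3, while its partner IFNAR2 passed on neither scale with all libraries and no correction. IFNAR1 had 21.3, 27.8 and 27.5 TPM in sgMETTL1.3, against 33.3, 34.1 and 31.3 TPM in sgNS. The groups did not overlap, and the lowest value was that of sgMETTL1.3 replicate 1. The log2 fold change was -0.36 as TPM (SE 0.11, limma adjusted p = 0.0293) and -0.70 on the spike-in scale (adjusted p = 0.000141). The call as TPM was lost without any 1 of the sgNS libraries (adjusted p = 0.0907 without replicate 1, 0.0983 without replicate 2 and 0.0613 without replicate 3). IFNAR2, the ligand-binding partner with JAK1 attached, had 57.8, 68.4 and 70.2 TPM in sgMETTL1.3, against 56.7, 56.8 and 53.1 TPM in sgNS. Its log2 fold changes were 0.23 as TPM (adjusted p = 0.0615) and -0.11 on the spike-in scale (adjusted p = 0.366). As TPM it passed without sgMETTL1.3 replicate 1 (0.32, adjusted p = 6.43e-05) and after GC correction (0.30, adjusted p = 0.00115). After GC correction it did not pass on the spike-in scale (-0.05, adjusted p = 0.675).

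Both STAT2 and IRF9, which act downstream of the receptor, rose on both scales. STAT2 had 40.8, 41.6 and 43.0 TPM in sgMETTL1.3, against 25.2, 25.1 and 26.9 TPM in sgNS, and the libraries within a group lay close together. It rose with log2 fold changes of 0.68 as TPM (SE 0.06, limma adjusted p = 0.000253) and 0.34 on the spike-in scale (adjusted p = 0.0194). The spike-in call was lost without sgMETTL1.3 replicate 3 (adjusted p = 0.0639), sgNS replicate 1 (0.0926) or sgNS replicate 2 (0.0613). IRF9, the DNA-binding partner of STAT2, had 17.2, 14.5 and 16.1 TPM in sgMETTL1.3, against 8.81, 8.15 and 7.30 TPM in sgNS. Its log2 fold changes were 0.90 as TPM (SE 0.10, adjusted p = 0.000432) and 0.58 on the spike-in scale (adjusted p = 0.00301), and the groups did not overlap on either scale.

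A ratio of genes within a library does not depend on the scale, and this one was chosen after the values were seen. IRF9 stood at 0.422, 0.349 and 0.375 of STAT2 in the sgMETTL1.3 libraries, against 0.349, 0.325 and 0.271 in the sgNS libraries (two-sided exact permutation p = 0.2).

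**Figure D2:**
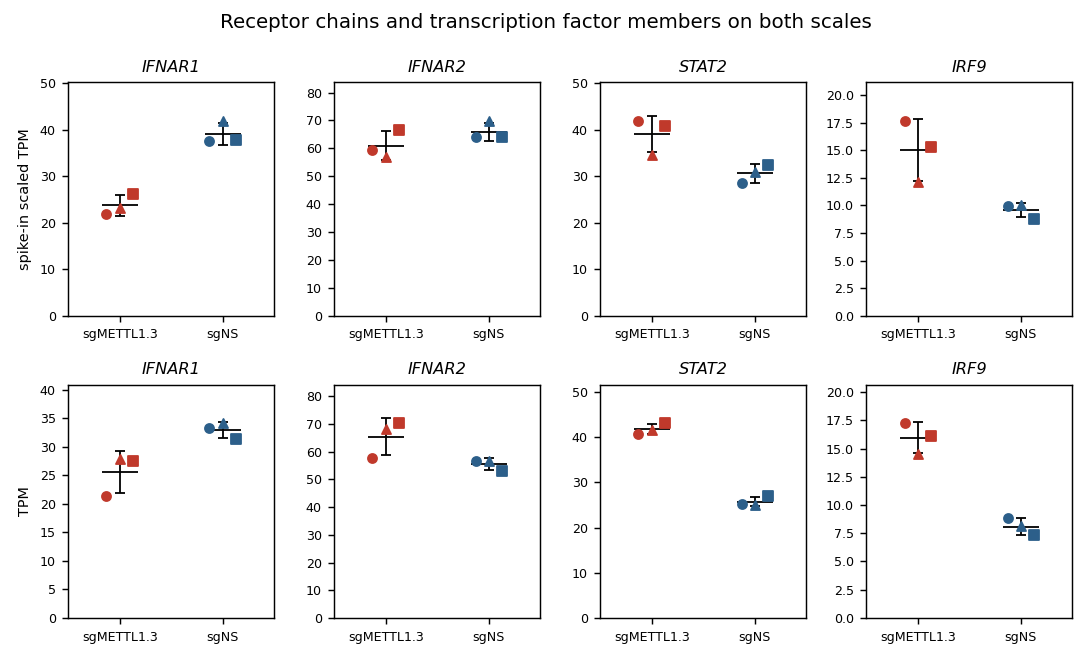
Values per library of IFNAR1, IFNAR2, STAT2 and IRF9, as spike-in scaled TPM in the upper row and TPM in the lower row; circles, triangles and squares are replicates 1, 2 and 3, and black lines are mean ± SD (n = 3). IFNAR1 averaged 25.6 TPM in sgMETTL1.3 and 32.9 TPM in sgNS, while STAT2 and IRF9 were higher in every sgMETTL1.3 library than in any sgNS library on both scales.

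IRF1, a transcription factor induced by interferon-gamma, had 16.9, 14.8 and 15.0 TPM in sgMETTL1.3, against 11.8, 12.2 and 11.4 TPM in sgNS. It rose as TPM (log2 fold change 0.37, limma adjusted p = 0.00641). On the spike-in scale its log2 fold change was 0.05 (adjusted p = 0.774) and the groups overlapped. It was -0.07 there without sgMETTL1.3 replicate 1 (adjusted p = 0.595).

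The IFIT genes, whose products bind the ends of foreign RNA and block its translation, sit side by side on chromosome 10 and were not lower in any call. IFIT2 had 16.6, 20.9 and 21.8 TPM in sgMETTL1.3, against 9.27, 9.13 and 9.23 TPM in sgNS. Every sgMETTL1.3 library lay above every sgNS library. IFIT2 rose with log2 fold changes of 1.01 as TPM (SE 0.11, limma adjusted p = 0.000397) and 0.69 on the spike-in scale (SE 0.12, adjusted p = 0.000258), and passed in all 6 fits that left out 1 library on each scale. IFIT1 had 10.6, 13.4 and 13.5 TPM in sgMETTL1.3, against 7.62, 6.93 and 7.20 TPM in sgNS. It rose with log2 fold changes of 0.71 as TPM (adjusted p = 0.00167) and 0.39 on the spike-in scale (adjusted p = 0.0121). The spike-in call for IFIT1 was lost without sgNS replicate 2 (adjusted p = 0.0538) or sgNS replicate 3 (0.0526). IFIT3, which stabilises IFIT1 in a complex, had 26.0, 29.5 and 30.7 TPM in sgMETTL1.3, against 20.3, 21.4 and 21.5 TPM in sgNS. It rose as TPM only (log2 fold change 0.43, adjusted p = 0.00427), and was 0.09 on the spike-in scale (adjusted p = 0.520). IFIT5 passed on neither scale with all libraries and no correction (0.29 as TPM, adjusted p = 0.0753). It passed as TPM without sgMETTL1.3 replicate 1 (0.39, adjusted p = 0.00912) and after GC correction (0.46, adjusted p = 0.00193).

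LIPA, a lysosomal lipase gene on the other strand, overlaps the gene spans of IFIT1, IFIT2 and IFIT3 in GENCODE release 29. Whether exons overlap was not checked. Whether reads were counted by strand is not known, so reads could be assigned to a wrong gene. LIPA had 105, 137 and 136 TPM in sgMETTL1.3, against 110, 107 and 104 TPM in sgNS (log2 fold change 0.22, limma adjusted p = 0.118). It passed without sgMETTL1.3 replicate 1 (0.35, adjusted p = 7.51e-06). Its part in the IFIT values was not tested.

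The 2′-5′ oligoadenylate synthetases and RNA sensors split by member. OAS1, which makes 2′-5′ oligoadenylates on sensing double-stranded RNA, rose as TPM (log2 fold change 0.31, limma adjusted p = 0.01) and was -0.03 on the spike-in scale (adjusted p = 0.844). OAS3, its relative for long RNA, was at 0.17 as TPM (adjusted p = 0.0404) and OASL at 0.36 (adjusted p = 0.0485). Each of these 2 calls was lost in 5 of the 6 fits that left out 1 library, with adjusted p up to 0.145 and 0.156. ADAR, the enzyme that edits adenosine to inosine in double-stranded RNA, had 166, 180 and 181 TPM in sgMETTL1.3, against 223, 228 and 224 TPM in sgNS. Its log2 fold change was -0.36 as TPM (SE 0.05, adjusted p = 0.00171) and -0.71 on the spike-in scale (adjusted p = 5.8e-05). IFIH1, the cytosolic sensor MDA5, fell on the spike-in scale (-0.40, adjusted p = 0.00420) and was at -0.06 as TPM (adjusted p = 0.616).

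ISG15 is a ubiquitin-like protein, HERC5 the ligase that attaches it and USP18 the protease that removes it and also blocks IFNAR2 signalling. ISG15 had 45.5, 25.2 and 26.8 TPM in sgMETTL1.3, against 19.4, 19.8 and 18.9 TPM in sgNS. The highest value was that of sgMETTL1.3 replicate 1, and ISG15 had the highest transcript GC content of the tested members (64.1%). It rose as TPM (log2 fold change 0.67, SE 0.21, limma adjusted p = 0.0306), but not without sgNS replicate 1 (adjusted p = 0.0800), replicate 2 (0.0745) or replicate 3 (0.0848). The value without sgMETTL1.3 replicate 1 was 0.41 (adjusted p = 4.05e-05). On the spike-in scale ISG15 was at 0.34 (adjusted p = 0.347), and at 0.01 without that library (adjusted p = 0.954). USP18 had 8.13, 5.99 and 7.20 spike-in scaled TPM in sgMETTL1.3, against 9.46, 12.2 and 10.4 in sgNS. It fell there (log2 fold change -0.53, adjusted p = 0.00564), and was at -0.22 as TPM (adjusted p = 0.0761), where it passed without sgMETTL1.3 replicate 1 (-0.25, adjusted p = 0.0205). HERC5 had 17.2, 17.6 and 21.0 spike-in scaled TPM in sgMETTL1.3, against 26.0, 29.7 and 26.8 in sgNS. It fell there (log2 fold change -0.55, adjusted p = 0.00147) and was at -0.21 as TPM (adjusted p = 0.148). HERC6, a relative of HERC5, passed on neither scale.

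MX2, a dynamin-like GTPase at the nuclear pore that restricts retroviruses, was the only MX or GBP gene that passed the filter. It had 78.7, 85.1 and 86.6 TPM in sgMETTL1.3, against 110, 109 and 114 TPM in sgNS, with no overlap. MX2 fell with log2 fold changes of -0.41 as TPM (SE 0.06, limma adjusted p = 0.00150) and -0.75 on the spike-in scale (SE 0.10, adjusted p = 4e-05).

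Among the membrane proteins, IFITM2 and BST2 carried the highest TPM levels of the list. IFITM2, which hinders fusion of virus and cell membranes, had 298, 285 and 297 TPM in sgMETTL1.3, against 418, 408 and 430 TPM in sgNS. It fell with log2 fold changes of -0.51 as TPM (SE 0.05, limma adjusted p = 0.000254) and -0.86 on the spike-in scale (adjusted p = 2.52e-05). IFITM2 overlaps IFITM1 on the same strand and the family is alike in sequence, so reads could be assigned to a wrong member. IFITM1 and IFITM3 stayed at or below 0.88 TPM in all 6 libraries. BST2, or tetherin, which holds budding virus at the cell surface, had 364, 330 and 348 TPM in sgMETTL1.3, against 295, 289 and 294 TPM in sgNS. It rose as TPM (0.24, adjusted p = 0.00725) and was at -0.10 on the spike-in scale (adjusted p = 0.463). After GC correction it was called higher as TPM (0.14, adjusted p = 0.0179) and lower on the spike-in scale (-0.21, adjusted p = 0.0425).

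TRIM5, a capsid-binding restriction factor, had the lowest log2 fold change of the list on both scales. It had 13.1, 14.9 and 15.2 TPM in sgMETTL1.3, against 21.2, 22.2 and 22.1 TPM in sgNS. It fell with log2 fold changes of -0.57 as TPM (SE 0.08, limma adjusted p = 0.00114) and -0.90 on the spike-in scale (SE 0.11, adjusted p = 2.35e-05). The TRIM5 locus overlaps TRIM22 on the opposite strand, and TRIM22 passed on neither scale (0.08 as TPM, adjusted p = 0.596). SP100 and SP110, proteins of nuclear bodies, fell on the spike-in scale (-0.36, adjusted p = 0.0103, and -0.47, adjusted p = 0.00307) and were at -0.01 and -0.14 as TPM. SP110 overlaps SP140 on the other strand, and SP140 rose on both scales. Without sgMETTL1.3 replicate 1, SP100 was called lower on the spike-in scale (-0.32, adjusted p = 0.00686) and higher as TPM (0.09, adjusted p = 0.0227). SP100 lost its call on the spike-in scale without sgNS replicate 2 (adjusted p = 0.0558) or sgNS replicate 3. PML, which builds these bodies, passed on neither scale with all libraries and no correction. After GC correction it was called lower on the spike-in scale (-0.28, adjusted p = 0.0140) and did not pass as TPM (0.05, adjusted p = 0.478).

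IFI6, a mitochondrial and endoplasmic reticulum protein, had the highest log2 fold change of the list with all libraries and no correction. It had 141, 102 and 104 TPM in sgMETTL1.3, against 53.6, 48.8 and 57.5 TPM in sgNS. The highest value was that of sgMETTL1.3 replicate 1, and the lowest sgMETTL1.3 value was still above every sgNS value. IFI6 rose with log2 fold changes of 1.09 as TPM (SE 0.13, limma adjusted p = 0.000737) and 0.75 on the spike-in scale (SE 0.18, adjusted p = 0.00763). Without that library the values were 0.94 as TPM (adjusted p = 9.67e-06) and 0.53 on the spike-in scale (adjusted p = 3.78e-06). IFIT2 then stood higher than IFI6, at 1.13 as TPM and 0.74 on the spike-in scale. After GC correction IFIT2 was also higher, at 1.15 against 0.99 as TPM and 0.83 against 0.65 on the spike-in scale. XAF1, a proapoptotic gene, had 2.14, 2.30 and 2.45 TPM in sgMETTL1.3, against 3.21, 2.97 and 2.96 TPM in sgNS. XAF1 fell with log2 fold changes of -0.30 as TPM (adjusted p = 0.0220) and -0.56 on the spike-in scale (adjusted p = 0.00238). As TPM the call was lost without sgMETTL1.3 replicate 2 (adjusted p = 0.0581), sgNS replicate 1 (0.0859), sgNS replicate 2 (0.0627) or sgNS replicate 3 (0.0606).

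IFI27, a small mitochondrial protein gene, had 3.95, 2.08 and 3.25 TPM in sgMETTL1.3, against 2.45, 0.93 and 0.91 TPM in sgNS, and the groups overlapped. Its log2 fold change was 0.78 as TPM (SE 0.27, limma adjusted p = 0.0465). Of the sgNS libraries only replicate 1 reached 1 TPM. The filter was thus passed through the sgMETTL1.3 libraries, so this call is not independent of the filter. This call was lost without sgMETTL1.3 replicate 1 (adjusted p = 0.107), sgMETTL1.3 replicate 3 (0.104), sgNS replicate 2 (0.140) or sgNS replicate 3 (0.141). On the spike-in scale it was at 0.58 (adjusted p = 0.146), and passed after GC correction (0.46, adjusted p = 0.00657). It also passed there without sgMETTL1.3 replicate 1 (0.38, adjusted p = 0.0327), sgMETTL1.3 replicate 2 (0.82, 0.0348) or sgNS replicate 1 (0.85, 0.0145). IFI35 fell on the spike-in scale (-0.47, adjusted p = 0.0267), with overlapping groups, and the call was lost in 4 of the 6 fits that left out 1 library (adjusted p up to 0.127). As TPM it passed without sgMETTL1.3 replicate 1 (-0.38, adjusted p = 0.0254).

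PARP14, a mono-ADP-ribosyltransferase, had 22.9, 27.9 and 28.7 TPM in sgMETTL1.3, against 37.0, 37.7 and 36.9 TPM in sgNS. It fell with log2 fold changes of -0.48 as TPM (SE 0.09, limma adjusted p = 0.00483) and -0.82 on the spike-in scale (adjusted p = 3.44e-05). Its neighbour PARP9 fell on the spike-in scale only (-0.36, adjusted p = 0.0120, and -0.02 as TPM), and lost that call without sgNS replicate 2 (adjusted p = 0.0731) or replicate 3. DTX3L, which starts beside PARP9 on the other strand and overlaps it, fell on both scales (-0.46 as TPM, adjusted p = 0.00545). SAMD9L, an endosome-linked antiviral and antiproliferative protein, had 6.42, 9.09 and 10.1 TPM in sgMETTL1.3, against 5.17, 5.31 and 5.20 TPM in sgNS. It rose as TPM (0.59, SE 0.15, adjusted p = 0.0137), and was at 0.29 on the spike-in scale (adjusted p = 0.0942), where it passed without sgMETTL1.3 replicate 1 (0.40, adjusted p = 0.00304). Its neighbour SAMD9 rose as TPM (0.45, adjusted p = 0.0326), a call that was kept in 1 of the 6 fits that left out 1 library.

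**Figure D3:**
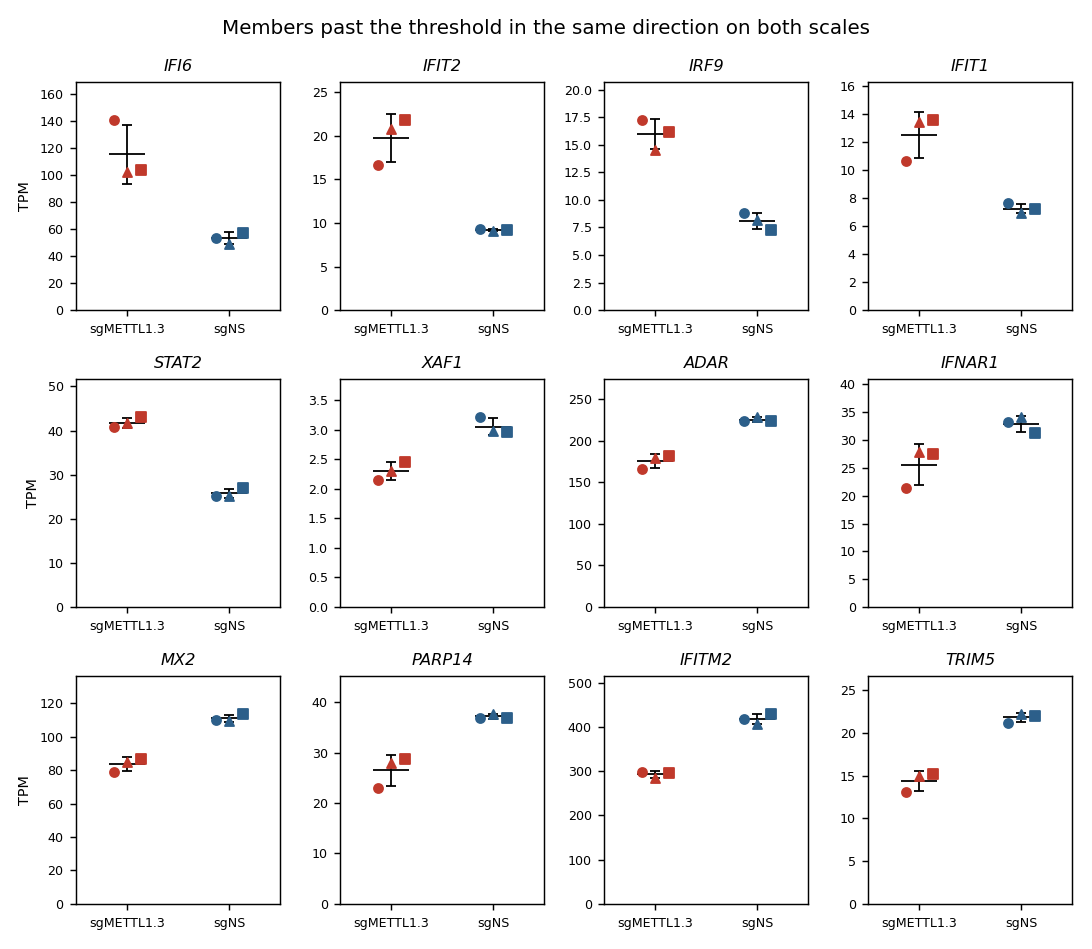
TPM per library of the 12 members past the threshold in the same direction on both scales, ordered by log2 fold change; circles, triangles and squares are replicates 1, 2 and 3, and black lines are mean ± SD (n = 3). IFI6 averaged 116 TPM in sgMETTL1.3 and 53.3 TPM in sgNS, and TRIM5 averaged 14.4 TPM in sgMETTL1.3 and 21.8 TPM in sgNS; no panel shows overlapping groups.

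The other 12 members did not pass the filter and were not tested. EPSTI1 and IFI44L did not exceed 0.02 TPM in any library. RSAD2 and CMPK2, adjacent genes for an antiviral nucleotide pathway, stayed at or below 0.62 TPM, as did GBP1 and GBP2, guanylate-binding proteins induced by interferon-gamma. GBP1 had 0.59, 0.56 and 0.51 TPM in sgMETTL1.3, against 0.23, 0.18 and 0.18 TPM in sgNS. IFI44 had 0.66, 0.63 and 0.43 TPM in sgMETTL1.3, against 0.25, 0.24 and 0.16 TPM in sgNS. Both were higher in every sgMETTL1.3 library, at levels below 1 TPM. OAS2 did not exceed 0.40 TPM. MX1, a GTPase often used as a marker of the interferon response, was between 0.54 and 0.90 TPM in sgMETTL1.3 and between 0.70 and 1.08 TPM in sgNS. ISG20 had 1.41, 1.16 and 0.88 TPM in sgMETTL1.3, against 0.68, 0.51 and 0.76 TPM in sgNS.

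Of the tested members with a promoter in the table, 13 held a match to the searched pattern and 13 did not. A window without a match can still hold GAAA repeats at another spacing, as those of OAS1 and XAF1 do. With a match, 8 rose, 2 fell and 3 did not pass as TPM, with a median log2 fold change of 0.29. Without a match, 5 rose, 3 fell and 5 did not pass, with a median of -0.02. Over all tested genes 24.4% rose and 26.6% fell as TPM. On the spike-in scale, 2 rose and 4 fell with a match (median 0.07), and 2 rose and 7 fell without a match (median -0.36), where 6.40% of all tested genes rose and 49.3% fell. These counts are a description with no test. Members on both sides carry the same letters: TRIM5 and IFIT1 share TTTCACTTTC, and TRIM5 fell while IFIT1 rose. No match was found in the windows of STAT2 and IRF9. IFIT2 and MX2 had no promoter in the table.

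Neighbouring members were compared as ratios within each library, which are the same on both scales. Among 13 pairs of tested members within 300 kb of each other, groups did not overlap for 11 (two-sided exact permutation p = 0.1 for each, the smallest that 3 against 3 allows; adjusted p = 0.118 over the 13 pairs). Among all 44735 pairs of tested genes at this distance and above 0 in every library, groups did not overlap for 64.8%. Pairs of the IFIT genes share members, so the 13 pairs are not independent of each other. IFNAR1 to IFNAR2 was 0.369, 0.407 and 0.392 in sgMETTL1.3, against 0.587, 0.600 and 0.590 in sgNS. The pair lies on chromosome 21. IFIT2 to IFIT3 was 0.639, 0.707 and 0.711 in sgMETTL1.3, against 0.457, 0.426 and 0.429 in sgNS. PARP9 to PARP14 was 0.690, 0.672 and 0.619 in sgMETTL1.3, against 0.492, 0.469 and 0.469 in sgNS. TRIM22 to TRIM5 was 0.444, 0.455 and 0.434 in sgMETTL1.3, against 0.278, 0.316 and 0.235 in sgNS. HERC5 to HERC6 and IFIT3 to IFIT5 overlapped between groups.

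**Figure D4:**
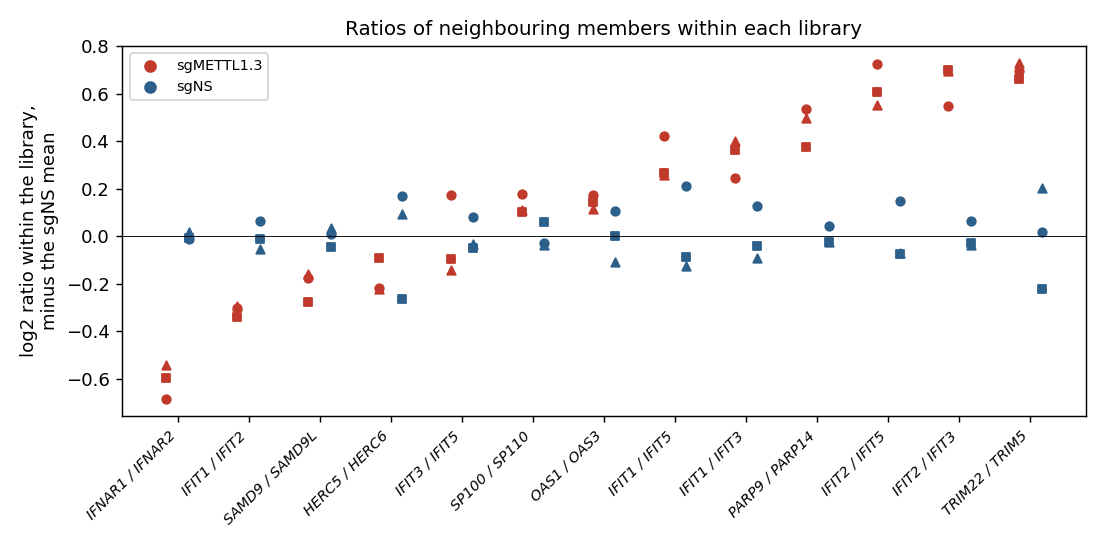
Log2 ratio of 2 neighbouring members within each library, minus the sgNS mean of that pair, for 13 pairs; circles, triangles and squares are replicates 1, 2 and 3. The sgMETTL1.3 libraries lie lowest for IFNAR1 over IFNAR2 (mean difference -0.61) and highest for TRIM22 over TRIM5 (mean difference 0.70).

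Among the 34 tested members, the deviation of sgMETTL1.3 replicate 1 from replicates 2 and 3 also followed GC content (Spearman 0.91 over 34 genes of the same libraries). It was highest for ISG15 (0.78 on log2(TPM + 1)) and lowest for SAMD9L and SAMD9 (-0.51 for both), whose GC content was 38.5% and 36.0%. After GC correction IFI6 was at 0.99, IFIT2 at 1.15, IRF9 at 0.80, IFIT1 at 0.85 and STAT2 at 0.65 as TPM, all past the threshold. The 7 members that fell on both scales passed there too, with log2 fold changes between -0.62 for IFITM2 and -0.29 for IFNAR1.

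**Figure D5:**
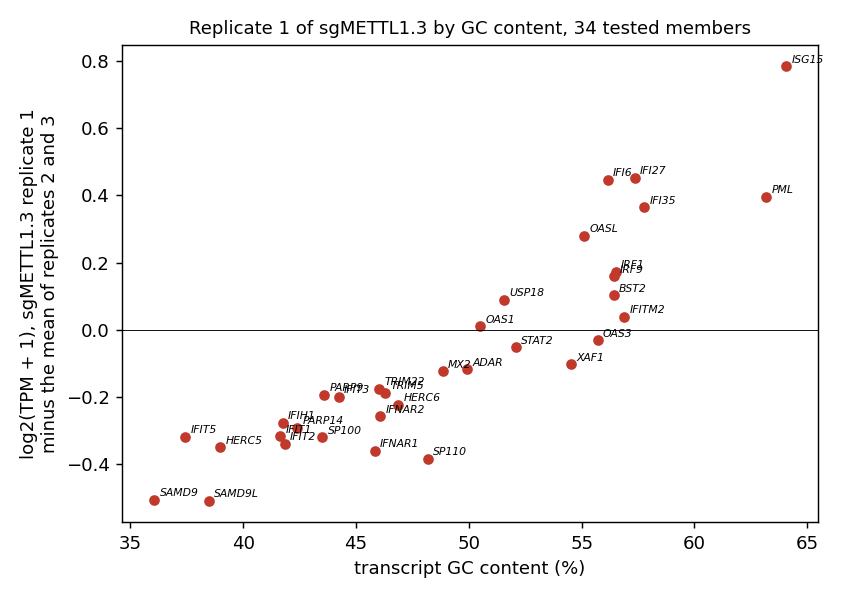
Log2(TPM + 1) of sgMETTL1.3 replicate 1 minus the mean of replicates 2 and 3, against transcript GC content, for the 34 tested members (1 point per gene). ISG15 at 64.1% GC lies at 0.78 and SAMD9 at 36.0% GC at -0.51.

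Other genes of the pathway were taken from lists by role. All 21 interferon ligand genes were below 1 in every library on both scales, and 15 of them were listed at 0 in all 6 libraries. Of 7 tested receptors, kinases and STATs that are no members, 1 rose and 3 fell on the spike-in scale, and 2 rose and 1 fell as TPM. Shares over all tested genes were 6.40% higher and 49.3% lower on the spike-in scale, and 24.4% higher and 26.6% lower as TPM. STAT3 rose on both scales (0.66 as TPM), while IFNGR2, a chain of the interferon-gamma receptor (-0.18 as TPM), fell on both. STAT3 lost its spike-in call without sgNS replicate 1 or 3 (adjusted p up to 0.0869), and IFNGR2 its call as TPM in 5 of the 6 fits that left out 1 library (adjusted p up to 0.171). JAK1 rose as TPM only (0.33, limma adjusted p = 0.0199), and this was kept in 1 of the 6 fits that left out 1 library.

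Of 14 tested nucleic acid sensors and adaptors, 1 rose and 8 fell on the spike-in scale, where 6.40% and 49.3% of all tested genes did. As TPM 2 rose and 2 fell, where 24.4% and 26.6% of all tested genes did. AIM2, a DNA sensor of the inflammasome, rose on both scales (0.64 as TPM, and 0.33 on the spike-in scale, a call lost in 4 of the 6 fits that left out 1 library, with adjusted p up to 0.129). MYD88, the Toll-like receptor adaptor (-0.25 as TPM), and TMEM173, which encodes STING (-0.24), fell on both. Leaving out 1 library took the calls as TPM from MYD88 in 2 of 6 fits and from TMEM173 in 5 of 6 (adjusted p up to 0.0712 and 0.132). Of 4 other tested interferon regulatory factors, none rose on either scale, and 3 fell on the spike-in scale and 2 as TPM. The shares over all tested genes given above apply to these counts too. IRF8, a factor of the monocyte lineage, fell to 96.6 ± 4.47 TPM in sgMETTL1.3, against 139 ± 1.83 TPM in sgNS (SD, n = 3). IRF2 fell on both scales (-0.23 as TPM), and lost the call as TPM in 4 of the 6 fits that left out 1 library (adjusted p up to 0.114).

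Of 10 genes of ISG15 conjugation and negative feedback, 1 rose and 5 fell on the spike-in scale, where 6.40% and 49.3% of all tested genes did. As TPM 1 rose and 2 fell, where 24.4% and 26.6% of all tested genes did. SOCS3, an inhibitor of JAK kinases, rose and had 2.78, 2.67 and 2.89 TPM in sgMETTL1.3, against 0.68, 0.86 and 0.88 TPM in sgNS. As TPM it reached the filter only through the sgMETTL1.3 libraries, so its call there is not independent of the filter. On the spike-in scale it was at 0.88 (limma adjusted p = 0.000175). There sgNS replicates 2 and 3 also reached 1, but the filter of 3 libraries still needed an sgMETTL1.3 library. The call on that scale is thus not independent of the filter either. UBA7, the enzyme that activates ISG15 (-0.53 as TPM), and the phosphatase PTPN6 (-0.62) fell on both scales. Of 7 nucleases that clear nucleic acids, 1 rose and 6 fell on the spike-in scale, where 6.40% and 49.3% of all tested genes did. As TPM 1 rose and 3 fell, where 24.4% and 26.6% of all tested genes did. The lysosomal DNase gene DNASE2 rose on both scales (0.88 as TPM). RNASEH2A and RNASEH2B, subunits of RNase H2, and RNASET2, a lysosomal RNase gene, fell on both (-0.51, -0.52 and -0.84 as TPM).

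The labelled cell type was checked with markers. Of 9 monocytic markers 8 were tested, and MPO was below 1 in every library. CD33, CD68, CD4, SPI1 and CEBPA had their lowest single value at 73.4 TPM, that of CD33. This value does not cover the tested markers ITGAM, CSF1R and LYZ and is no floor of the whole list. The summed TPM of the monocytic list was 888 to 991 in sgMETTL1.3 and 1111 to 1137 in sgNS. As TPM 1 of the 8 rose and 3 fell, where 24.4% and 26.6% of all tested genes did. On the spike-in scale 5 fell, where 49.3% of all tested genes did. LYZ, which encodes lysozyme, fell most (-2.13), CD33 and CSF1R fell too, and CD68 rose. Without LYZ, a split made after the values were seen, the other 8 markers summed to 924, 809 and 813 TPM in sgMETTL1.3, against 796, 775 and 786 TPM in sgNS. The lower sum as TPM thus rests on LYZ. On the spike-in scale these 8 summed to 947, 673 and 771 in sgMETTL1.3, against 899, 952 and 949 in sgNS. The part of these markers in the results above was not tested. CD3D, CD3E, CD3G, CD8A and KLRD1 of the T and natural killer list were below 1 in every library, while NKG7 was at 187 TPM or more in each and fell (-0.40 as TPM). Of 4 plasmacytoid dendritic cell markers 3 had a row and 2 were tested, with a summed TPM of 7.58 to 8.29 in sgMETTL1.3 and 6.12 to 6.26 in sgNS. IL3RA rose on both scales (0.63 as TPM, limma adjusted p = 0.00384, and 0.40 on the spike-in scale, adjusted p = 0.0455), but on the spike-in scale not without sgMETTL1.3 replicate 1 (adjusted p = 0.104), and TCF4 passed on neither. All 5 erythroid and megakaryocytic markers and all 3 epithelial markers were below 1 in every library. The B cell list summed to 4.89 to 8.04 TPM in sgMETTL1.3 and 3.27 to 4.40 TPM in sgNS, with CD79A higher in sgMETTL1.3 as TPM (0.58, limma adjusted p = 0.0390). Of the fibroblast and endothelial list, COL1A1 rose (0.81 as TPM), and PECAM1 did not pass as TPM and fell on the spike-in scale (-0.40, adjusted p = 0.00417).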

How the data were processed

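Libraries of poly(A) RNA were made from 300 ng of total RNA with ERCC spike-ins, per the labels' protocols. Cutadapt, STAR and RSEM are named with GRCh38 and hg38 per the submitters' processing notes. Tool versions, the gene annotation and strandedness were not stated in the labels or notes. As read from its values, the deposited signal is TPM in steps of 0.01, multiplied in each library by a factor that gives all 92 spike-ins together an equal sum. Such steps come from rounding and not from reads, so the depth is unknown and counting intervals are left out.

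TPM was restored by dividing each column by its total. Genes were tested with limma 3.58.1 (trend and robust) in R 4.3.3 on log2(value + 1), without a block, on every gene that reached 1 in 3 or more of the 6 libraries. Fold changes are on that scale and understate the change of low genes. Exact permutation tests used scipy 1.17.1. Transcript GC content (median over a gene's transcripts) and positions came from GENCODE release 29 (GRCh38), and promoters from RefSeq (GRCh38.p14). The GC correction removed the lowess trend of each library's deviation on GC content, keeping the library's median shift.

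Members and gene lists were chosen with earlier results of these data known. Values in every library are given for members called in the same direction on both scales, members called on 1 scale with a log2 fold change of at least 0.5 in size, and the receptor and factor members. BST2, IFIT3, LIPA and the members below the filter that are also given in this way were chosen after their values were seen, as was the ratio of IRF9 to STAT2. Pathway genes called on both scales are named; 2 genes of the lists are not reported here and are left out of the lists' counts.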

Additional observations from a re-analysis of the deposited data

How the results depend on the processing

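Scaling decided most counts. With median-ratio size factors in place of the spike-in factor, 13 members rose (23.0% of all tested genes) and 7 fell (28.9%), and the median log2 fold change was 0.18, beside -0.02 over all tested genes. GC correction gave 8 members higher on the spike-in scale. Leaving out 1 library gave 3 to 7 members higher and 11 to 14 lower on the spike-in scale, and 10 to 16 higher and 5 to 9 lower as TPM. Over all tested genes these fits called 4.34% to 8.41% higher and 39.7% to 61.4% lower on the spike-in scale, and 17.5% to 34.7% higher and 19.5% to 35.4% lower as TPM. ISG15 had a log2 fold change of -0.044 on the spike-in scale with GC correction and without sgMETTL1.3 replicate 1. IRF1 was at -0.056 there with GC correction and at -0.10 with GC correction and without that library, and leaving out 1 library gave -0.073 (without sgMETTL1.3 replicate 1) to 0.16. IFNAR2 was at 0.21 with median-ratio size factors. The cause of these changes was not tested. By the rule given above 19 members were given by library, which leaves out BST2, IFIT3 and the members below the filter. Of these 19, 10 kept direction and side of the threshold on the spike-in scale under every alternative run, and 13 as TPM. Part of the 19 were chosen by their calls in the same data. Fits without 1 library of a group assume that the other libraries' spread holds for it.

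Same-numbered libraries did not deviate together (correlations of -0.0137, 0.0046 and -0.0385 on the spike-in scale, over 12449 genes), so the numbers are not treated as pairs. With the replicate block 6 members rose (6.54% of all tested genes) and 14 fell (47.1%) on the spike-in scale, and 13 rose (22.8%) and 6 fell (24.8%) as TPM; IFI27 passed on the spike-in scale (adjusted p = 0.00324).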
